A study of Mus musculus with 22 samples.

Results

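The smooth muscle contractile genes of 22 mouse mammary cell lines are the subject here: Acta2, Actg2, Tagln, Cnn1, Myh11, Mylk, Oxtr and Myl9. They were picked by name, as the entries of the deposited expression table whose platform gene symbol is 1 of these 8, with the entry of highest mean kept where a gene had several. Each of 7 members had 1 probe set, out of 14860 genes with a probe set of a single symbol. The level of Myl9, a regulatory light chain of myosin, was not analysed here. The study hybridised total RNA of growing cultures to exon arrays, with 1 array per line. Each gene therefore has 1 value per line, on a scale that the range of the values, 2.74 to 13.9, marks as log2.

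The lines fall into 3 origins. The 12 lines from genetically engineered mice (GEM) carry drivers that are mostly expressed from the mammary MMTV promoter. Lines 2508 and 2855 share 1 MMTV-Wnt carcinoma. Lines 6DT1, cMyc and Myc83 are from MMTV-Myc mice, and MVT1 and MVT2 from MMTV-Myc-VEGF bitransgenic mice. DB7 came from an MMTV-PyVT Db tumour, a polyoma middle T double mutant uncoupled from PI3K, after transplantation. M6 and M6C are C3(1)Tag lines, M6C being grown from a lung metastasis of M6. Line 780 is described as BRCA-/- and p53+/+ with Wap-cre, and p1522 as p53-/- with MMTV-cre, although the culture protocol calls both models p53+/-. The 8 lines of spontaneous tumours are 67NR, 4T07 and 4T1 (of 1 BALB/cfC3H tumour, each selected or transfected for drug resistance), D2A1 and D20R (of a D2 hyperplastic alveolar nodule line), EMT6, TSA and F311, a sarcomatoid clone. The immortalized lines are NMUMG, from adult Namru mammary gland, and EPH4, a vector-infected subclone of cells from a pregnant Balb/c mouse. The labels give no animal ages. Lines of a common tumour or nodule line were averaged for every test, which left 17 lineages (10 GEM, 5 spontaneous and 2 immortalized).

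Smooth muscle contracts when calcium and calmodulin activate myosin light chain kinase, which phosphorylates the light chain of smooth muscle myosin and lets it pull on actin filaments. In the mammary gland this apparatus belongs to the myoepithelial cells, the basal layer that squeezes milk from the alveoli when oxytocin binds its receptor. Fibroblasts that turn into myofibroblasts also make alpha smooth muscle actin. Serum response factor, SRF, drives many of these genes together with myocardin or myocardin-related factors, through a DNA element called the CArG box.

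The promoter of Acta2 is shown because its level varied most and all other members were set against it, and that of Cnn1 because its level followed Acta2 most closely. Both are the 250 bases before the start that RefSeq's promoter entry gives in GRCm38.p6, read 5′ to 3′ on the strand of the gene; the entry does not name the transcript. Acta2 lies at chr19:34255374-34255623 on the minus strand and Cnn1 at chr9:22099003-22099252 on the plus strand. The gene spans in RefSeq reach into both windows: that of Acta2 begins at base 34255585, so most of its window lies within the annotated gene, and that of Cnn1 begins at base 22099221. Capitals mark CArG boxes in which at most 1 of the 6 middle letters departs from the consensus.
Acta2: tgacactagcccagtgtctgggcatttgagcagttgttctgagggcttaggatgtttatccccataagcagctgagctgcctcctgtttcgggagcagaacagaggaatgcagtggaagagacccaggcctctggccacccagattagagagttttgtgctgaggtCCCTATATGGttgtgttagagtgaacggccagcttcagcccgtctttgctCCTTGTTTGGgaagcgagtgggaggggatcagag
Cnn1: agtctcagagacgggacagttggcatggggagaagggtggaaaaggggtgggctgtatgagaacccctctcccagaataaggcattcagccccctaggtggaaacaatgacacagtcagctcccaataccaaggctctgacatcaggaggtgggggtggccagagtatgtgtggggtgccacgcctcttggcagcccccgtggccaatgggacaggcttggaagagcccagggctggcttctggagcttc
The Acta2 window holds 2 such boxes, CCCTATATGG and CCTTGTTTGG, which begin 84 and 34 bases before the start of that entry. Neither is strict, as each departs from the consensus by 1 letter. A strict CArG box was present in 1.47% of the 32851 promoters searched on both strands, a box with at most 1 departure in 8.59%, and 2 or more of the latter in 0.67%. The Acta2 window also holds 1 MCAT element (CATTCC or its complement GGAATG), as do 12.6% of all promoters; it does not overlap the boxes. No box was found in the Cnn1 window, which says only that these letters are absent from it. A window was found for 5 of the 8 members. Those of Mylk and Oxtr held 0 boxes, and that of Myl9 held 2, of which 1 was strict. The members without a window, Actg2, Tagln and Myh11, are named only.

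Acta2, alpha smooth muscle actin, had the widest range of the 7 measured members. Its log2 value was 12.66 in 2508, 12.64 in EMT6, 11.82 in Myc83, 11.23 in D20R, 11.14 in 2855 and 10.21 in p1522. It was 9.0 in cMyc, 7.98 in DB7 and 7.90 in 6DT1, and these 9 lines alone lay above the median of their own array. The other 13 lines ran from 6.71 in D2A1 down to 5.34 in 4T07, without a step. The distance from the highest to the lowest line was 7.32 log2 units, and within its array Acta2 moved from the 24.3rd to the 99.9th percentile. High values occurred in GEM and in spontaneous lines, and in neither immortalized line, where NMUMG had 6.55 and EPH4 5.96. With 1 array per line there is no replicate spread with which to separate neighbours in this order. In a bulk culture, fewer cells making a transcript and less of it per cell cannot be told apart.

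Actg2, gamma smooth muscle actin of visceral muscle, was high in fewer lines. Its value was 9.55 in 2508 and 8.23 in Myc83, and these lines alone lay above the array median. The other 20 lines lay between 4.99 in NMUMG and 6.44 in cMyc, and the median over all 22 lines was 5.49. EMT6, D20R and p1522, 3 lines with high Acta2, had Actg2 values of 5.47, 5.83 and 5.33, within the range of the low lines. The sister lines 2508 and 2855 stood 3.39 log2 units apart for Actg2, at 9.55 and 6.15.

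Tagln, or SM22-alpha, is an actin-binding protein of smooth muscle and a standard SRF target. It was 8.51 in 2508, 7.88 in Myc83 and 7.62 in 2855, the 3 lines above their array median. The remaining 19 lines ran from 5.38 in p1522 to 6.56 in D20R. EMT6, which had the second highest Acta2 of all, had a Tagln value of 5.93, close to the median of 5.82 over all lines.

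Cnn1, calponin, binds actin and restrains the myosin ATPase in differentiated smooth muscle. It exceeded the array median in 4 lines, 2855 with 7.87, Myc83 with 7.61, 2508 with 7.47 and EMT6 with 7.23. All 4 also had Acta2 above 11. The other 18 lines lay between 5.88 in p1522 and 6.66 in F311. Cnn1 was thus the only other member above its array's median in EMT6, and p1522, sixth in Acta2, had the lowest Cnn1 of all.

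**Figure D1:**
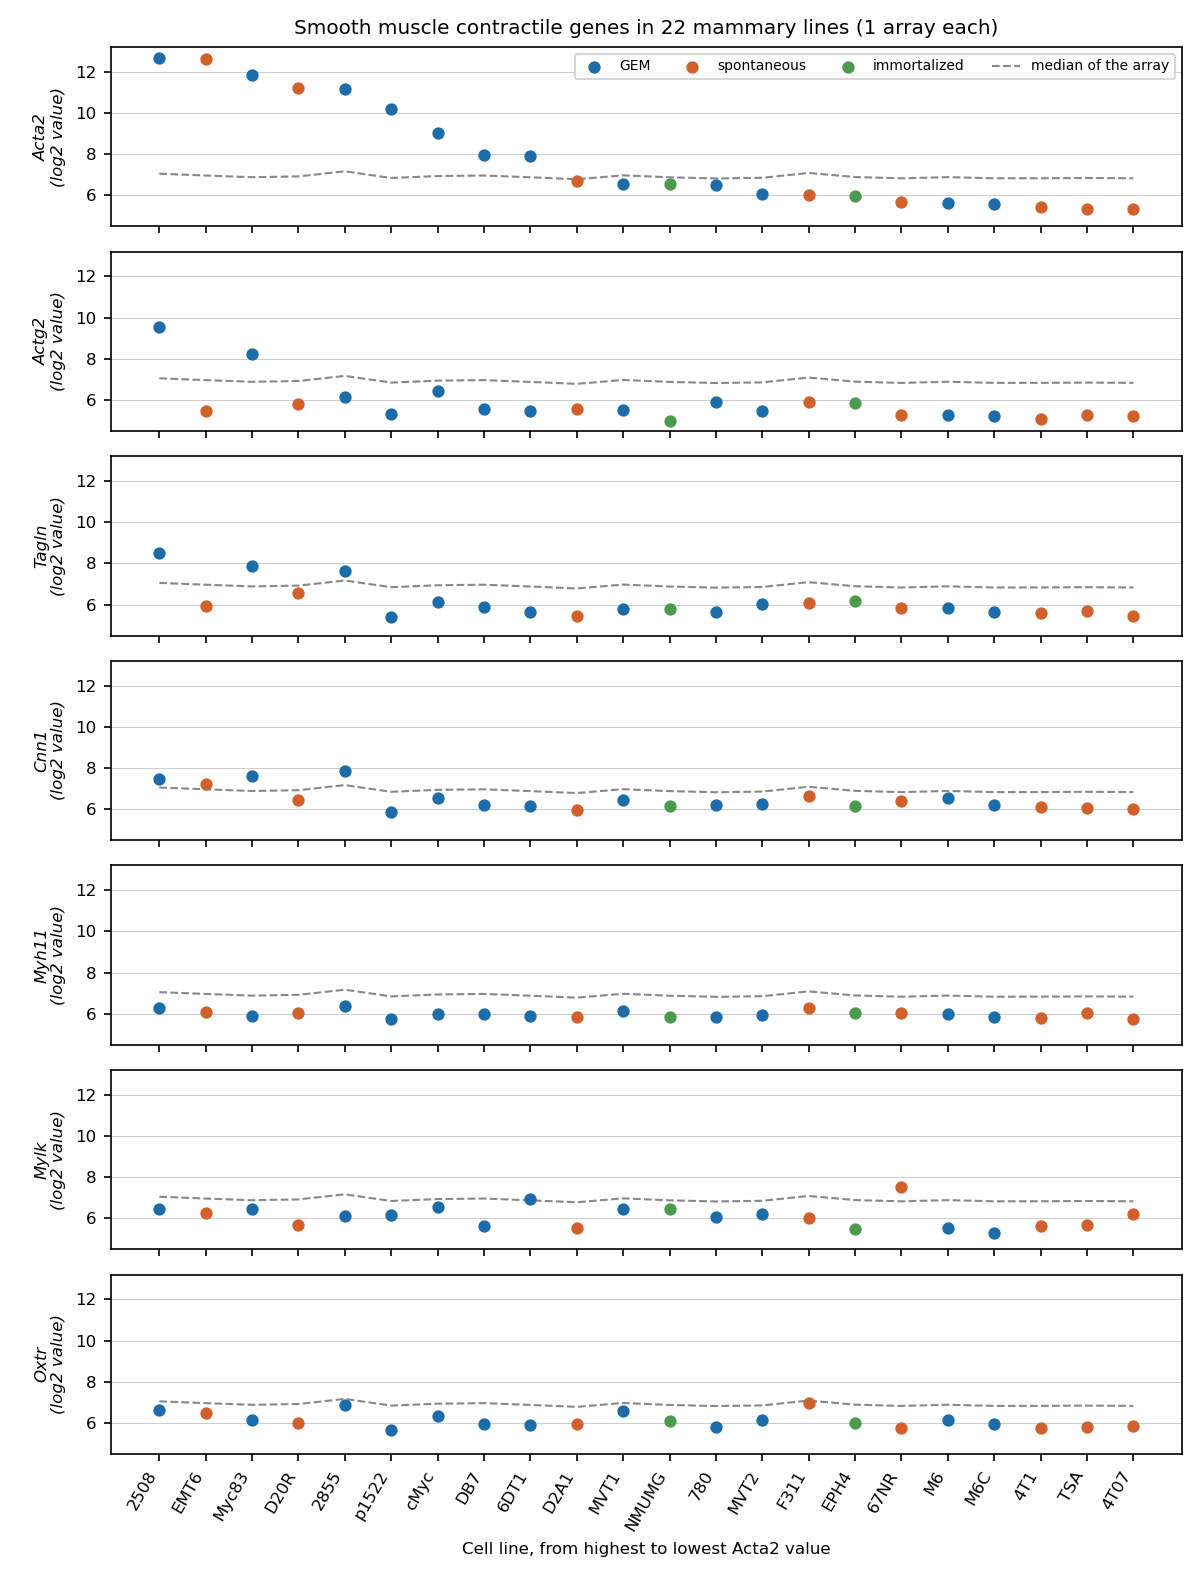
Log2 values of the 7 measured members (1 panel each, common y axis) in the 22 lines, ordered from highest to lowest Acta2; each point is 1 array, coloured by origin, and the dashed line is the median of that array. Actg2 stands above the line in 2508 and Myc83, Tagln in these and 2855, Cnn1 in these and EMT6, and Myh11 and Oxtr in no line.

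Myh11, the heavy chain of smooth muscle myosin and the most restricted marker of mature smooth muscle, did not exceed the array median in any line. Its values ran from 5.74 in p1522 to 6.39 in 2855, a range of 0.65. Within its array it stayed between the 32.4th and the 36.0th percentile. In 2508 the value was 6.26 and in Myc83 5.91, on either side of the median of 5.98. Myh11 followed the spread of the whole array: its Pearson r with the standard deviation of all values on the array was -0.93 over 17 lineages. The arrays of 2855, 2508 and F311 had the smallest standard deviations, 1.76, 1.88 and 1.88, and also the 3 highest Myh11 values.

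Oxtr, the oxytocin receptor through which milk ejection is triggered, was also below the array median in all 22 lines. It ranged from 5.65 in p1522 to 6.95 in F311, with 6.89 in 2855 and 6.65 in 2508. Its r with the array's standard deviation was -0.83 over 17 lineages. For the other members this r was -0.52 for Cnn1, -0.48 for Tagln, -0.38 for Actg2, -0.18 for Acta2 and -0.07 for Mylk. The slopes of Tagln and Cnn1 on Acta2 with array spread added to the fit are given with the other slopes.

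**Figure D2:**
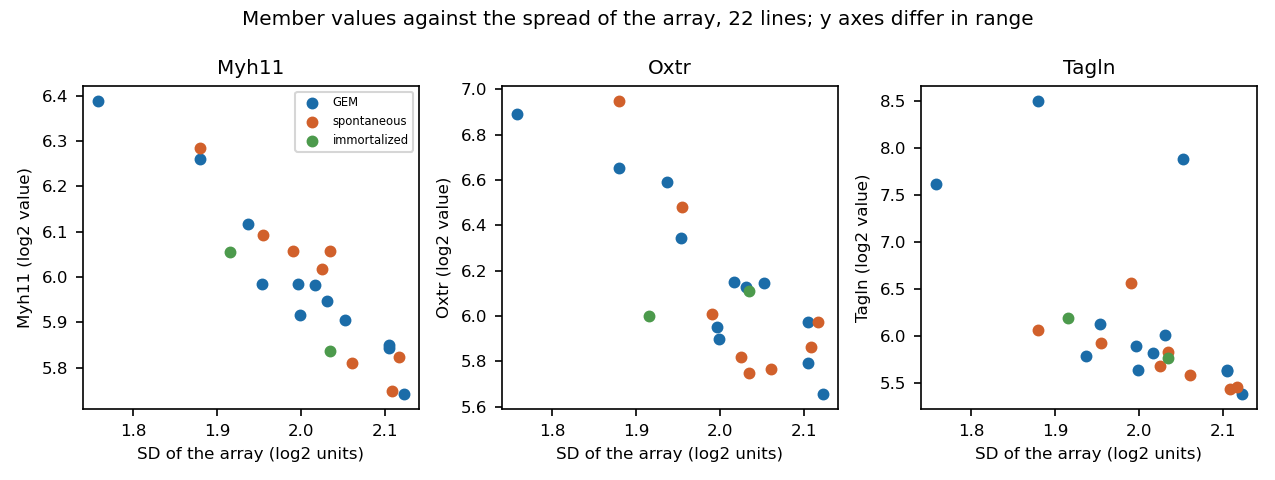
Log2 values of Myh11, Oxtr and Tagln (y axes, different ranges) against the standard deviation of all tested values on the same array (x axis, log2 units); each point is 1 of 22 lines, coloured by origin. Myh11 and Oxtr are lower on arrays of larger spread, and Tagln has 3 lines that stand above the others.

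Mylk encodes myosin light chain kinase, in smooth muscle and non-muscle forms that a single value per gene does not separate. Its highest values were in lines with little Acta2 or a middling level: 7.55 in 67NR and 6.93 in 6DT1, the only lines above the array median. The lowest were 5.27 in M6C and 5.50 in EPH4. In 2508, EMT6 and Myc83 Mylk was 6.44, 6.26 and 6.47, against a median of 6.14 over all lines. Mylk thus did not set the lines with the most Acta2 apart.

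Whether the other members followed Acta2 was tested over the 17 lineages, with the slope of each probe set on Acta2 in limma. Cnn1 was higher by 0.16 ± 0.04 (SE) log2 units for each log2 unit of Acta2, Actg2 by 0.22 ± 0.07 and Tagln by 0.18 ± 0.06. Without Myc83 the Actg2 slope was 0.14, and without ZD2508 the Tagln slope was 0.11. The unadjusted p was 0.000670 for Cnn1, 0.00478 for Actg2 and 0.00789 for Tagln. After Benjamini-Hochberg adjustment over 16754 probe sets in limma the p was 0.606 for Cnn1 and 0.788 for both others, so 0 of 6 members passed. The slope was 0.05 ± 0.04 for Mylk, 0.04 ± 0.04 for Oxtr and 0.01 ± 0.02 for Myh11, with unadjusted p of 0.240, 0.309 and 0.625 and adjusted p of 0.939, 0.939 and 0.948. By the adjusted p, 1 probe set of the whole table passed (0.00597%). By the unadjusted p under 0.05, 3 of 6 members had a positive slope, against 2.63% of all probe sets. All 6 slopes were positive, as were 59.2% of all, whose median slope was 0.01. With the array's standard deviation as a further term, the slope was 0.20 for Actg2, 0.16 for Tagln and 0.14 for Cnn1.

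**Figure D3:**
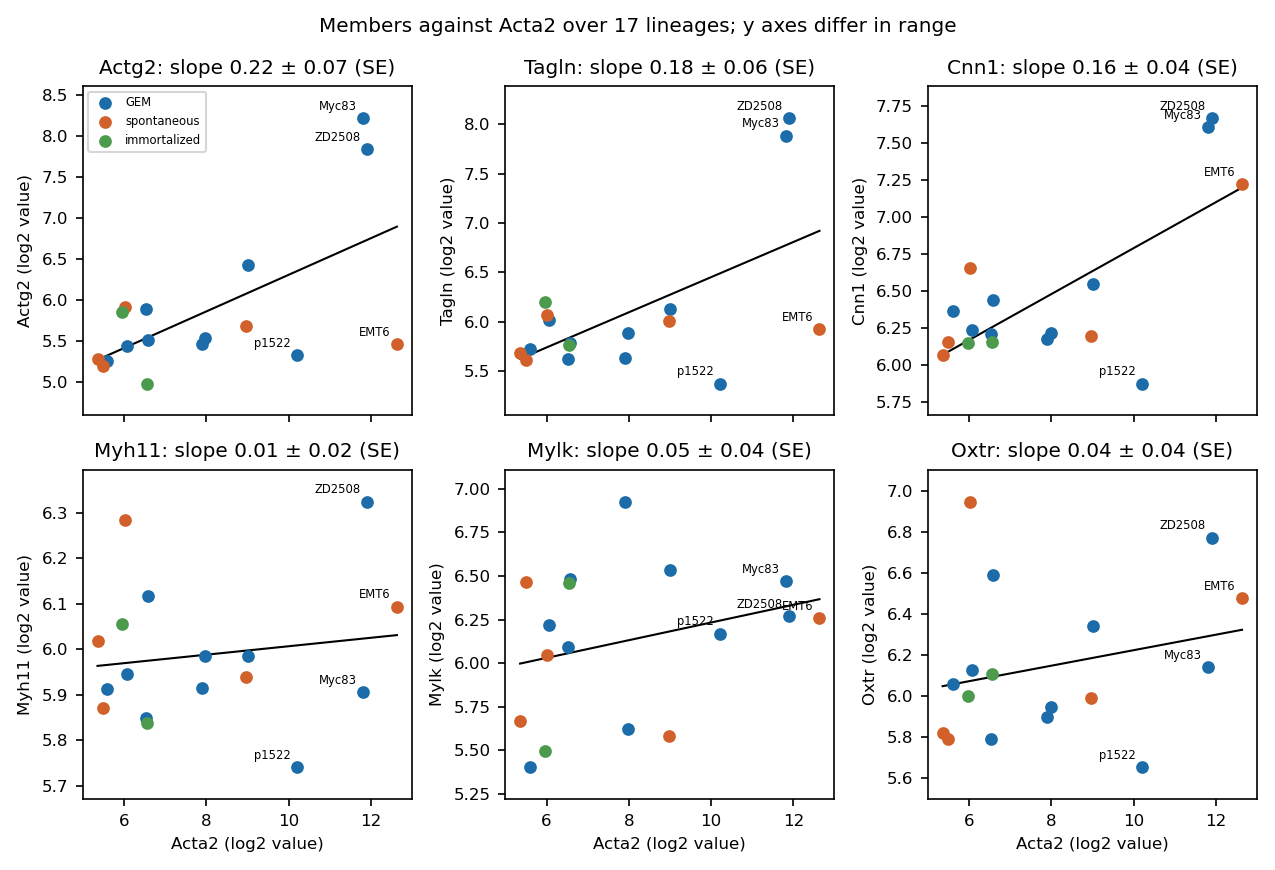
Log2 value of each of 6 members (y axes, different ranges) against that of Acta2 (x axis) over 17 lineages, each point a lineage coloured by origin, with the fitted limma slope and its standard error in the title. ZD2508 (lines 2508 and 2855) and Myc83 lie far above the other lineages in the Actg2 and Tagln panels, while EMT6 and p1522 have high Acta2 and low Actg2 and Tagln.

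As a description with no test, Pearson's r with Acta2 over the 17 lineages was 0.71 for Cnn1, 0.61 for Actg2 and 0.58 for Tagln, and Spearman's rho was 0.49, 0.49 and 0.36. For Mylk, Oxtr and Myh11 r was 0.29, 0.25 and 0.15. Among 14459 genes ranked by r with Acta2, Cnn1 stood at place 15, Actg2 at 75 and Tagln at 110, and Myh11 at 5386. The points share an array platform but not a culture medium, and 2 lineages carried much of the relation. Without the lineage ZD2508 and Myc83, a choice made after their values were seen, r was 0.16 for Actg2, 0.00 for Tagln and 0.47 for Cnn1. The slope on Acta2 was then 0.03 for Actg2, 6.18e-05 for Tagln and 0.07 for Cnn1. Without EMT6 and ZD2508, the lineages farthest from the median Acta2 value, r was 0.67 for Actg2, 0.56 for Tagln and 0.49 for Cnn1.

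Actg2 and Tagln were more alike than either was to Acta2. Their r over 17 lineages was 0.94, and that of Tagln and Cnn1 0.87 and of Actg2 and Cnn1 0.82. Without ZD2508 and Myc83 these became 0.60, 0.44 and 0.29. Myh11 and Oxtr had an r of 0.86 with each other, which turned to -0.31 when each value was replaced by its percentile within the array.

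The lines with much Acta2 differed in the markers of cell type that came with it. Line 2508 had the basal keratins Krt5 at 12.19 and Krt14 at 12.08 and Trp63, the basal transcription factor p63, at 9.56. Its epithelial adhesion genes were low, with Cdh1 (E-cadherin) at 7.0 and Epcam at 6.20. Krt5 exceeded the array median in 1 of 22 lines, 2508. In that line 20 of 21 measured myoepithelial genes were above the array median, and their mean was 2.57 log2 units above that over all lines, the highest of any line. Lines 2508 and 2855 were the only GEM lines in a low-serum medium with insulin and epidermal growth factor. That medium and the Wnt driver therefore cannot be told apart. Line 2855 shared both and had Krt5 at 6.54, Trp63 at 6.87, Cdh1 at 10.65 and Epcam at 10.79. Its myoepithelial mean was 0.69 log2 units above that over all lines. M6C and M6, with little Acta2, came near it at 0.64 and 0.59, and Myc83 had 0.52. In D20R, p1522 and EMT6, with much Acta2, the mean was -0.22, -0.52 and -0.62. What parted 2508 from 2855 in these genes was not tested.

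Myc83 and 2855 had Krt14 at 11.19 and 10.12 without Krt5, which was 6.05 and 6.54, and with Trp63 at 5.63 and 6.87. They were rich in epithelial adhesion genes, with Cdh1 at 10.84 and 10.65 and Epcam at 11.36 and 10.79. These lines and 2508 were the 3 lines with Tagln above the array median. All 3 also had Postn, the matrix protein periostin, at 9.74 to 10.14, which otherwise reached such a level in DB7 alone, at 10.29.

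EMT6, D20R and p1522 had Acta2 without these keratins. Their Krt14 was 6.50, 6.37 and 6.06, their Cdh1 6.66, 7.30 and 6.50, and their Epcam 5.97, 5.83 and 5.42. Postn was 4.81, 4.88 and 6.14 in the same order. Line p1522 had Dcn, the fibroblast proteoglycan decorin, at 11.42, against 8.94 in 2855 and at most 6.27 elsewhere, while Ogn, osteoglycin, was 9.81 in EMT6 and 9.80 in 2855. Of 24 measured myofibroblast genes, 13 were above the array median in EMT6, 15 in D20R and 17 in p1522, against 18 in 2508, 15 in Myc83 and 21 in 2855. Lines with less Acta2 had like counts, with 16 in 67NR and DB7, 15 in 780, 14 in TSA and 13 in D2A1. These counts alone did not mark the lines with much Acta2. The mean of these genes, relative to that over all lines, came closer to doing so, though not for every line with Acta2 above its array median. It was 1.13 in 2855, 0.83 in 2508, 0.51 in D20R, 0.40 in p1522, 0.38 in Myc83 and 0.34 in EMT6. In 67NR, with little Acta2, it was 0.71, in 780 0.19 and in the remaining lines at most 0.13. Those included DB7 at 0.13, cMyc at -0.18 and 6DT1 at -0.49, whose Acta2 also lay above the array median.

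Krt14 also occurred without Acta2. M6 and M6C had Krt14 at 11.98 and 12.00 and Acta2 at 5.63 and 5.57, and EPH4 had Krt14 at 9.82 and Acta2 at 5.96. Vim, vimentin, which mesenchymal cells and many cultured cells make, was between 12.34 and 13.25 in 21 lines and 8.37 in EPH4, and so set none of the high Acta2 lines apart. The endothelial markers Pecam1, Kdr and Tek were above the array median in 0 of 22 lines. Of the immune markers, Cd3e was above it in 2 lines and Itgam, Ptprc and Adgre1 in 0. Cd68 was above it in 17 lines. It reached 10.56 in MVT1, 10.06 in MVT2, 9.72 in cMyc, 8.98 in 6DT1, 8.62 in EMT6 and 8.55 in p1522. Krt5, Trp63, Cdh1, Epcam and Vim were singled out after their values were seen. So were Col1a1, Myocd, Fap, Thy1, Lum, Cdh2, Ptprc and Adgre1 among the lists.

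**Figure D4:**
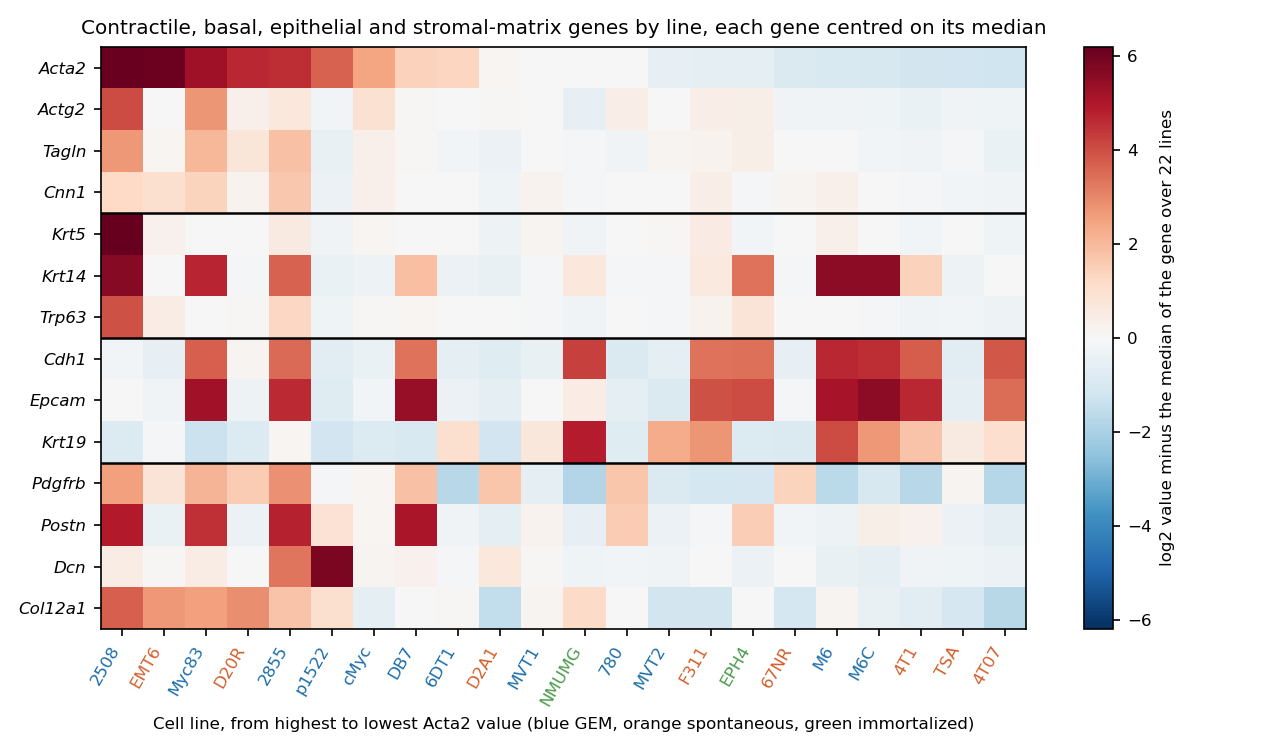
Log2 value of 14 genes minus the median of that gene over 22 lines (colour, red above and blue below) by line, ordered from highest to lowest Acta2; black lines part contractile, basal, epithelial and stromal genes. Line 2508 is red for Krt5, Krt14 and Trp63, Myc83 and 2855 for Krt14, Cdh1 and Epcam, and EMT6, D20R and p1522 are pale or blue for all of these.

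The gene most like Acta2 over the 17 lineages was Col12a1, a fibril-associated collagen, with r of 0.86. Its slope of 0.46 ± 0.07 (SE) made it the probe set that passed limma, with an adjusted p of 0.0205. The call rests on single lineages: 0 probe sets passed when 4T, EMT6, F311, MVT2, Myc83, TSA or ZD2508 was left out. Col12a1 was 10.72 in 2508, 9.89 in D20R, 9.73 in EMT6, 9.59 in Myc83, 8.82 in 2855 and 8.03 in p1522. In the other 16 lines it ran from 5.32 in 4T07 to 8.24 in NMUMG, so the groups overlap in NMUMG alone. Col12a1 was picked by its r with Acta2 in these same values, so this near separation follows from the choice and adds no support. Next by r came Il17rc (0.83), an interleukin 17 receptor chain, Rxra (0.79), a retinoid receptor, Cited2 (0.78), a transcriptional coregulator, Acot6 (0.77), Cyp26b1 (0.77), which breaks down retinoic acid, C1qtnf6 (0.77) and Ogn (0.76). Lowest were Appbp2 (-0.77), Mrps23 (-0.75), a mitochondrial ribosomal protein, Chrnb1 (-0.75) and Ing5 (-0.74). No contractile gene was among the 8 most alike.

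The genes closest to Actg2 were Tagln (0.94), Cmah (0.94) and C1qtnf3 (0.94), and those closest to Tagln were C1qtnf3 (0.95), Actg2 (0.94) and Sh3rf3 (0.93). C1qtnf3, a secreted protein of the C1q and TNF family, was also closest to Cnn1 (0.90), before Lctl (0.88) and Cspg4 (0.88). It was 7.04 in Myc83, its highest line. Nearest to Mylk were Mknk1 (0.84), Clic4 (0.81) and Ilvbl (0.80). Nearest to Myh11 were Cacna1f (0.98), Cdh4 (0.97) and Atp2a1 (0.97), and to Oxtr Syp (0.96), Col8a2 (0.96) and Syt9 (0.96). Myh11 and Oxtr had r of -0.93 and -0.83 with the standard deviation of the array. Each of their neighbours named here had its highest value in 2855, the array of smallest standard deviation. How far these r values reflect array spread was not tested.

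Other genes of the contractile apparatus and its control had slopes on Acta2 as follows, and 0 genes of any list passed the adjusted p in limma. Of 24 measured contractile genes outside the members, 22 had a positive slope, with a median of 0.05, and 7 had an unadjusted p under 0.05, all positive. Over all 16754 probe sets 59.2% of slopes were positive, with a median of 0.01, and 2.63% were positive at an unadjusted p under 0.05. The largest slopes were those of Fhl1, a LIM-domain protein of muscle (0.33), Myh10, a non-muscle myosin heavy chain (-0.19), and Tpm2, beta-tropomyosin (0.18). Tpm2 was 8.45 in 2508, 8.25 in cMyc and 8.07 in EMT6, its 3 highest lines. Of 12 SRF cofactors and regulators 8 had a positive slope, with a median of 0.01, and 2 an unadjusted p under 0.05, namely Mrtfa (0.09), a myocardin-related cofactor, and Srf itself (0.09), with Klf4 (0.08) next in size. Mrtfa lay between 8.05 and 9.46 and Srf between 8.17 and 9.74 over the 22 lines, above the array median in all. Myocd, myocardin, was below it in all, between 5.61 and 6.52. Among 26 genes of contraction signalling 16 slopes were positive, with a median of 0.01. In limma 1 had an unadjusted p under 0.05, Plcb1 (0.13), a phospholipase C. It also had the largest slope, before Rhoc (-0.09) and Gna11 (-0.08). Plcb1 was below the array median in all 22 lines, between 4.99 and 6.39.

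Among lists of cell types, the myofibroblast genes had the largest median slope on Acta2, 0.12, with 23 of 24 positive and 6 positive at an unadjusted p under 0.05, beside the 59.2% and 2.63% of all probe sets. Pdgfrb, a PDGF receptor, had 0.37, Postn 0.36 and Dcn 0.29, and the fibrillar collagen Col1a1 had 0.24. Other genes of this list were flat: Fap, Thy1 and Lum, above the array median in 0 lines, had 0.004, 0.02 and 0.02. Cdh2 had the only negative slope, -0.05. Myoepithelial genes had a median of 0.04 with 16 of 21 positive, and 1 in each direction at an unadjusted p under 0.05; Snai2, a repressor of E-cadherin, had 0.20, Itga6, a laminin-binding integrin chain, -0.18 and Krt14 0.15. Luminal genes had a median of -0.05 with 5 of 18 positive, and 2 negative at an unadjusted p under 0.05; the keratins Krt19 and Krt18 had -0.39 and -0.24 and the tight junction gene Cldn4 -0.26. Of 18 genes of the TGF-beta pathway 13 were positive, with a median of 0.07, and 3 positive at an unadjusted p under 0.05; Tgfbi had 0.18, Ccn1 0.14 and Tgfb3 0.13. For pericyte genes 7 of 8 were positive with a median of 0.02, 2 of them at an unadjusted p under 0.05, and Anpep (0.16), Mcam (0.14) and Cspg4 (0.06) were largest. Striated muscle genes had 6 of 8 positive and a median of 0.02, with Tnnt2 (-0.09), Des (-0.03) and Ckm (0.03) largest. Immune genes had 4 of 5 and endothelial genes 4 of 4 positive, each with a median of 0.01, and in these and the striated muscle list 0 genes had an unadjusted p under 0.05.

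**Figure D5:**
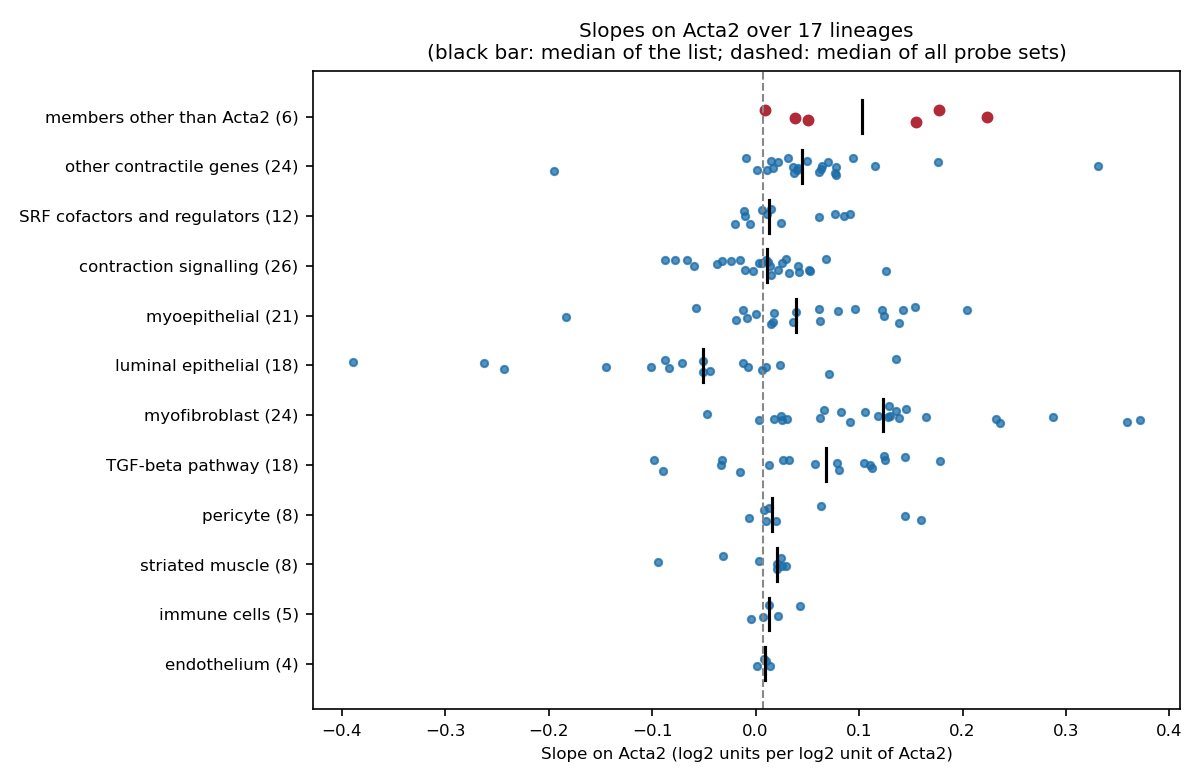
Slope on Acta2 over 17 lineages (x axis, log2 units per log2 unit of Acta2) of each measured gene in the members and 11 lists (rows, number of genes in brackets); points are genes, spread vertically only for legibility, black bars list medians, and the dashed line the median of all 16754 probe sets. The myofibroblast row lies furthest to the right among the 11 lists, and luminal genes are the only list with a median below 0.

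Between origins no member passed limma's adjusted p. Acta2 averaged 8.36 ± 2.31 (SD, n = 10) in GEM lineages, 7.69 ± 3.13 (SD, n = 5) in spontaneous ones and 6.26 ± 0.41 (SD, n = 2) in immortalized ones. The GEM lineages ran from 5.60 to 11.90, with a median of 7.94, and the spontaneous ones from 5.36 to 12.64, so the groups overlap fully. The GEM minus spontaneous difference in Acta2 was 0.67 ± 1.24 (SE; limma adjusted p = 0.967). It was 0.083 without TSA, 0.116 without 4T, 0.247 without F311, 0.273 without ZD2508, 0.282 without Myc83 and 1.90 without EMT6. Actg2 differed by 0.58 ± 0.45, Tagln by 0.35 ± 0.39, Mylk by 0.21 ± 0.23, Cnn1 by 0.07 ± 0.28, Myh11 by -0.07 ± 0.10 and Oxtr by -0.07 ± 0.20. Among all probe sets 0.113% passed the adjusted p and 7.72% an unadjusted p under 0.05; 0 of 7 members did either.

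Tumour lineages, as the mean of both tumour origins, exceeded the immortalized ones in Acta2 by 1.77 ± 1.72 (SE; limma adjusted p = 0.753). This is smaller than the spread within the tumour groups, and 2 immortalized lineages give little power. Actg2 differed by 0.38 ± 0.62, Cnn1 by 0.35 ± 0.39, Mylk by 0.13 ± 0.32, Oxtr by 0.12 ± 0.28, Myh11 by 0.06 ± 0.14 and Tagln by 0.06 ± 0.54. Again 0 of 7 members passed the adjusted p, as did 0.298% of all probe sets, or an unadjusted p under 0.05, as did 11.9%.

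Among GEM lineages, the 5 lineages carrying Myc were compared with the remaining 5. Mylk was 6.93 in 6DT1, 6.53 in cMyc, 6.48 in MVT1, 6.47 in Myc83 and 6.22 in MVT2. In the others it was 6.27 in ZD2508, 6.17 in p1522, 6.09 in 780, 5.62 in DB7 and 5.40 in M6. The groups overlap only through MVT2 and ZD2508. The means were 6.53 ± 0.26 and 5.91 ± 0.38 (SD, n = 5 each), and the difference of 0.61 ± 0.20 (SE) had an unadjusted p of 0.00922 and an adjusted p of 0.788 in limma. Acta2 differed by -0.17 ± 1.32, Actg2 by 0.24 ± 0.62, Tagln by 0.15 ± 0.55, Cnn1 by 0.13 ± 0.36, Oxtr by 0.18 ± 0.21 and Myh11 by 0.01 ± 0.13. By the adjusted p 0 of 7 members passed, with 0.0119% of all probe sets, and by the unadjusted p 1 of 7, with 5.41% of all. Culture media differed among the GEM models without following the Myc transgene exactly, and their part in the Mylk values was not tested.

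Lines of a common tumour or nodule line showed how far members moved within a lineage, with 1 array each and so no test. D20R had 4.52 log2 units more Acta2 than D2A1, a difference that 0.0537% of all probe sets matched in size. Tagln differed by 1.11, Cnn1 by 0.50 and Actg2 by 0.28 in the same direction. A difference over 1 log2 unit thus occurred for Acta2 and Tagln, and for 4.32% of all probe sets. Between 2508 and 2855, which shared a medium, it occurred for Actg2 (3.39) and Acta2 (1.52), and for 5.28% of all. Tagln was 0.89 higher in 2508 and Cnn1 0.40 lower, the difference being -0.40.

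In the lines of the 4T tumour Acta2 was low throughout, at 5.68 in 67NR, 5.44 in 4T1 and 5.34 in 4T07. Mylk was 7.55 in 67NR, described as non-disseminating, 6.23 in 4T07, described as reaching the lung without colonizing it, and 5.62 in the metastatic 4T1. The Mylk difference from 67NR was -1.32 for 4T07 and -1.92 for 4T1, and 10.2% and 12.8% of all probe sets differed by over 1 log2 unit in these pairs. These pairs share 67NR. Between 4T1 and 4T07 no member differed by over 1 unit, with 3.18% of all. M6C and its parent M6 differed by at most 0.34 in size for any member, Cnn1 having the largest difference of -0.34, with 1.57% of all probe sets over 1 unit.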

How the data were processed

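Exon array data of 22 mouse mammary cell lines, 1 array per line, were taken from the deposited value table of the series. The authors deposited normalized values; per the submitters' processing notes GCOS was used with build mm9, and no source used here names the normalization method. The log2 scale of the deposited values was inferred from their range. Extraction is described for tumour samples in the protocol, whereas the design describes cultures. Probe sets were named through the platform annotation: of 23332 table entries, 6577 numbered below the first annotated one were left out and 16755 tested, of which 14996 have 1 symbol, 1019 several and 740 none; 14941 gene IDs were found in RefSeq and 0 symbols changed. Array medians ran from 6.78 to 7.17; the number of arrays limits the precision.

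Lines of a common tumour or nodule line were averaged to 17 lineages. Over all probe sets limma 3.58.1 (R 4.3.3) was then fitted (lmFit, eBayes, Benjamini-Hochberg, threshold 0.05, two-sided), after being tested on simulated data. Lineages are the replicates, and p-values measure only the spread between them. The fits were the slope on Acta2, GEM against spontaneous, tumour against immortalized, and Myc against other GEM lineages. Genes named are the members, the 8 genes of highest and 4 of lowest r with Acta2, 3 for each other member, and the 3 largest slopes of each of 11 lists (168 of 192 genes measured), besides those said to be singled out. Members, lists and tests were chosen with earlier results of these data known. Alternatives were other normalizations, a filter on dim probe sets, lines as units, other covariates and omitted lineages. Promoters came from RefSeq, GRCm38.p6.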

Additional observations from a re-analysis of the deposited data

How the results depend on the processing

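No member passed an adjusted p of 0.05 in any comparison under any alternative run. The slopes of Actg2, Tagln, Cnn1 and Mylk on Acta2 kept their sign under every alternative that gave a value. A kept sign is not a kept size: without ZD2508 and Myc83 the slope was 0.03 for Actg2 and 6.18e-05 for Tagln. Actg2 and Myh11 were removed by the filter on the dimmest probe sets. The slope of Myh11 turned negative with quantile normalization (-0.0060), centred arrays (-0.0035), without EMT6 and ZD2508 (-0.0235), with array standard deviation as a term (-0.0015), without ZD2508 and Myc83 (-0.0046) and on percentiles within the array (-0.0124), the last pair being chosen after seeing the data; that of Oxtr turned negative without EMT6 and ZD2508 (-0.0198). With lines as units and lineage as a random block, GEM minus spontaneous was 0.000362 for Oxtr, and Myc minus other GEM was -0.0012 for Myh11, which quantile normalization put at -0.0319. Leaving out 1 lineage at a time gave ranges that cross 0. These were -0.0069 to 0.0166 for the Myh11 slope; -0.0532 to 0.264 for Cnn1 and -0.177 to 0.113 for Oxtr in GEM minus spontaneous; -0.351 to 0.616 for Mylk, -0.160 to 0.273 for Tagln, -0.0531 to 0.819 for Actg2 and -0.0509 to 0.167 for Myh11 in tumour minus immortalized; and -1.06 to 0.695 for Acta2, -0.260 to 0.710 for Actg2, -0.244 to 0.635 for Tagln, -0.118 to 0.435 for Cnn1 and -0.0440 to 0.102 for Myh11 in Myc minus other GEM. Slope ranges that did not cross 0 were 0.144 to 0.324 for Actg2, 0.109 to 0.247 for Tagln and 0.124 to 0.181 for Cnn1. The Mylk slope gave 0.034 to 0.064 and the Oxtr slope 0.012 to 0.057. In GEM minus spontaneous such ranges were 0.083 to 1.90 for Acta2, 0.348 to 0.686 for Actg2 and 0.147 to 0.446 for Tagln. Mylk gave 0.109 to 0.329 there and Myh11 -0.116 to -0.013. In tumour minus immortalized they were 1.15 to 2.06 for Acta2, 0.251 to 0.396 for Cnn1 and 0.022 to 0.170 for Oxtr. In Myc minus other GEM they were 0.487 to 0.704 for Mylk and 0.077 to 0.357 for Oxtr. Over all probe sets, the count passing the Acta2 slope, 1 as reported, was 2 with lines as units and 0 without EMT6 and ZD2508, with the rank of Acta2, with array standard deviation, without ZD2508 and Myc83, and on percentiles, and 0 to 2 without single lineages (0 without 4T, EMT6, F311, MVT2, Myc83, TSA or ZD2508). The GEM against spontaneous count of 19 was 12 with lines as units and 9 to 32 without single lineages (without D2 and 780). The tumour against immortalized count of 50 was 120 with quantile normalization, 59 higher and 61 lower against 19 and 31 as reported, 2 without the dimmest probe sets, and 28 to 413 without single lineages (without 6DT1 and NMUMG). The Myc count of 2 was 2 to 15 without single lineages (15 without p1522). The cause of these changes was not tested. Averaging all entries of a gene was not run, since each member has 1. No paired analysis was possible because the lines carry no shared replicate numbers. The values carry no background measure, so which low values exceed background is unknown.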
